A study of Homo sapiens with 6 samples.

Results

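The RNA of 10 genes was followed in the human acute myeloid leukaemia line NOMO-1, a monocytic line with a fusion of KMT2A to MLLT3. They encode the DNA methyltransferases DNMT1, DNMT3A and DNMT3B, their partner UHRF1, the dioxygenases TET2 and TET3, the isocitrate dehydrogenases IDH1 and IDH2, and the KRAB corepressors TRIM28 and SETDB1. They were chosen by symbol, and all 10 were found among the 11363 genes of the authors' deposited table. The series set MSLN knockout cells (MSLN-KO, 3 libraries) against cells that it calls parental (WT, 3 libraries). Apart from the MSLN genotype, the labels give no allele, agent, dose or time, and they do not say how the knockout was made or whether the cells are 1 clone or a pool. No label says that the libraries of a group came from separate cultures. A p-value here sets a difference only against the spread among these libraries, and that spread may be technical.

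In vertebrates, DNMT3A and DNMT3B place methyl groups on cytosines of CpG pairs, and DNMT1, brought by UHRF1 to newly copied DNA, keeps the pattern through cell division. TET enzymes oxidise methylcytosine and use 2-oxoglutarate, which isocitrate dehydrogenases make, and mutant IDH1 or IDH2 makes 2-hydroxyglutarate, which blocks them. TRIM28 is held at DNA by zinc finger proteins with a KRAB domain and calls in SETDB1, which methylates lysine 9 of histone H3. Mutations of DNMT3A, TET2, IDH1 and IDH2 are frequent in acute myeloid leukaemia. Only RNA was measured here, not methylation, protein, enzyme activity or genotype.

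MSLN, the gene named in the knockout, had 45.7, 46.9 and 45.3 CPM (read counts scaled to library size by the authors) in the MSLN-KO libraries, against 153, 123 and 106 CPM in the WT libraries. It was lower in MSLN-KO (log2 change -1.43, SE 0.10, limma adjusted p = 1.5e-07), and its RNA was not absent. The libraries held 25230229, 26220479 and 30804446 reads in listed genes for MSLN-KO replicates 1 to 3, against 24745234, 25765425 and 23665824 for WT replicates 1 to 3. The groups also differed in which transcripts were present. Of the listed genes, 0 had no read in every MSLN-KO library and 21 had no read in every WT library, 5 of them KRAB genes of chromosome 19 described below and 7 of them genes of chromosome 9. MTAP on chromosome 9 had 17.2, 17.7 and 18.5 CPM in MSLN-KO and 0 in each WT library. The labels give no account of this, and whether both groups share all other alleles was not tested.

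All 10 monocytic leukaemia markers were listed, and 3 of them were higher and 6 lower in MSLN-KO. Their summed level was 7198 to 7618 CPM in MSLN-KO and 15745 to 16342 CPM in WT. Of the markers of T and NK, B, erythroid and megakaryocytic, epithelial and mesothelial, and stromal and endothelial cells, 1 gene each was listed (NKG7, CD79B, ITGA2B, KRT18 and PECAM1). The defining markers CD3E, HBB, EPCAM and COL1A1 were below the level of the table. In bulk RNA, fewer cells of a kind and less RNA per cell cannot be told apart.

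A gene was called when its limma adjusted p, over all 11363 genes, was under 0.05. TET2 and IDH2 were lower in MSLN-KO, DNMT3A was slightly higher, and the other 7 genes were not called. Across all genes 45.7% were called, 22.4% as higher and 23.3% as lower, so 3 of 10 called is no excess over the table. The MSLN-KO and WT values did not overlap for 5 of the 10 genes, against 54.7% of all genes. The median log2 change of the 10 was 0.07 and their median absolute change 0.11, against 0.01 and 0.18 over all genes.

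**Figure D1:**
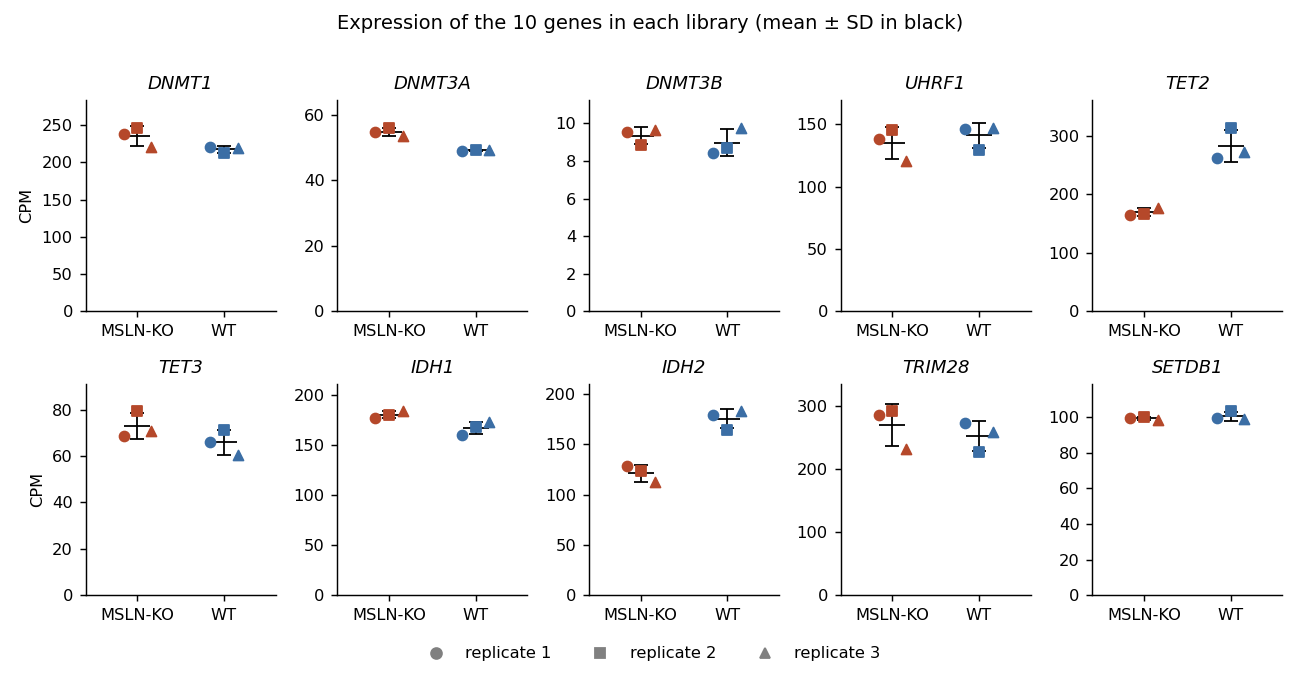
CPM of each of the 10 genes in the 3 MSLN-KO libraries (left, red) and the 3 WT libraries (right, blue), each y axis starting at 0, with mean ± SD in black. TET2 and IDH2 lie lower in every MSLN-KO library than in any WT library, and DNMT3A lies slightly higher.

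The stretches of DNA just before DNMT3A and TET2 are shown with their CpG pairs, at which DNMT3A can place methyl groups. IDH2, the other called gene, has 1 RefSeq window, which lies within the gene. Each is the 250 bases before a RefSeq start site on GRCh38.p14, 5′ to 3′ on the gene's strand, with CpG pairs in capitals. Both lie outside every GENCODE exon. The DNMT3A window is chr2:25342591-25342840 on the minus strand, and the TET2 window is chr4:105145625-105145874 on the plus strand.
DNMT3A: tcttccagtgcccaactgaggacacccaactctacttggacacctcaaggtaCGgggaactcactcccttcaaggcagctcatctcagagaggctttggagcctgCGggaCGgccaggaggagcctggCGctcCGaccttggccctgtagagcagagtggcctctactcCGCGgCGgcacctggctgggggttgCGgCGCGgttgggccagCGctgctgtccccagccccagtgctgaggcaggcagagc
TET2: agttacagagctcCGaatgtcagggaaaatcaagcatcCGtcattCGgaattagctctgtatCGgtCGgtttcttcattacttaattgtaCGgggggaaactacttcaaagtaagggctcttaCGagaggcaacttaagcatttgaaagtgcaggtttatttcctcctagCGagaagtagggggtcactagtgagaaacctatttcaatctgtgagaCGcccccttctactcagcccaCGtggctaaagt
The DNMT3A window held 12 CpG pairs, and 48.5% of the 35116 RefSeq windows, whose median was 11, had at least as many. The TET2 window held 10 CpG pairs, and 52.2% of all windows had at least as many. Both genes have further RefSeq start sites inside the gene. The 6 windows of DNMT3A held 12 to 33 CpG pairs, and the other window of TET2 held 34 and lies within annotated exons. RefSeq windows were found for 9 of the 10 genes (TRIM28 had none in the table), and their counts ran from 3 in DNMT3B to 41 in UHRF1. No methylation was measured at any of these windows.

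DNMT3A, a methyltransferase that sets new methylation, lies on the minus strand at chr2:25227855-25342590 (GRCh38, as are all positions of genes below). It had 54.9, 56.2 and 53.6 CPM in MSLN-KO, against 49.0, 49.4 and 49.2 CPM in WT. Every MSLN-KO library was above every WT library, and the WT libraries differed little among themselves. The means were 54.9 ± 1.28 CPM in MSLN-KO and 49.2 ± 0.192 CPM in WT (SD, n = 3 each), 1.11-fold higher in MSLN-KO (log2 change 0.15, SE 0.056, limma adjusted p = 0.04). Leaving out MSLN-KO replicate 1 or 2, or any 1 WT replicate, ended the call (limma adjusted p between 0.05 and 0.14).

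DNMT3B, the related enzyme that also sets new methylation, lies at chr20:32762385-32809356 on the plus strand. It was the lowest of the 10, with 9.56, 8.85 and 9.64 CPM in MSLN-KO against 8.40, 8.71 and 9.77 CPM in WT. The groups overlapped, and the log2 change of 0.06 had a 95% interval of -0.14 to 0.26 (limma adjusted p = 0.65). The log2 ratio of DNMT3B to DNMT3A within a library was -2.43 ± 0.0926 in MSLN-KO and -2.34 ± 0.101 in WT (SD, n = 3 each; exact permutation p = 0.5, two-sided, and 0.5 adjusted over the 4 gene pairs tested in this way).

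DNMT1, which copies methylation to the new strand, lies at chr19:10133345-10231286 on the minus strand. Its values were 238, 246 and 220.7 CPM in MSLN-KO, against 220.4, 212 and 219 CPM in WT. The lowest MSLN-KO library stood only just above the highest WT library. The log2 change of 0.11 was not called (95% interval -0.01 to 0.23, limma adjusted p = 0.12). It was called without MSLN-KO replicate 3 (limma adjusted p = 0.029), and the 172 listed genes within 5 Mb had a median log2 change of 0.12, close to that of DNMT1.

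UHRF1, which reads hemimethylated DNA and recruits DNMT1, lies at chr19:4903080-4962154 on the plus strand. It had 139, 145 and 120.4 CPM in MSLN-KO, against 146.5, 129.5 and 147.4 CPM in WT. MSLN-KO replicate 3 was the lowest, and the groups overlapped. Its log2 change of -0.07 had a 95% interval of -0.23 to 0.09 (limma adjusted p = 0.49).

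TET2, a dioxygenase that oxidises methylcytosine and is often mutated in myeloid cancers, lies at chr4:105145875-105279816 on the plus strand. It had 165, 166 and 177 CPM in MSLN-KO, against 262, 314 and 272 CPM in WT. All MSLN-KO libraries were below all WT libraries with a wide gap between them. The means were 169 ± 6.82 CPM in MSLN-KO and 283 ± 27.9 CPM in WT (SD, n = 3 each), a ratio of 0.599. The log2 change of -0.73 (SE 0.068, 95% interval -0.88 to -0.58, limma adjusted p = 2.3e-06) was the largest of the 10, and 6.42% of all genes changed by as much or more in either direction. The 28 other listed genes within 5 Mb were 6 higher and 12 lower, with a median log2 change of -0.08. After subtraction of the regional median, TET2 stood at -0.65 (limma adjusted p = 7.4e-06). Without any 1 library its log2 change stayed between -0.78 and -0.65. The summed monocytic markers were also lower in MSLN-KO (above), and their part in this result was not tested.

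TET3, a second enzyme of this family, lies at chr2:73986404-74108176 on the plus strand. It had 68.9, 79.4 and 70.8 CPM in MSLN-KO, against 66.1, 71.3 and 60.6 CPM in WT. The highest WT library stood above 2 of the MSLN-KO libraries, and the log2 change of 0.14 was not called (95% interval -0.01 to 0.30, limma adjusted p = 0.13). It was called without WT replicate 2 (limma adjusted p = 0.04). Within a library, the log2 ratio of TET3 to TET2 was -1.21 ± 0.135 in MSLN-KO and -2.08 ± 0.0961 in WT (SD, n = 3 each). The ratio differed by 0.88, with exact permutation p = 0.1 (two-sided, 0.2 over the 4 pairs), the smallest p that 3 against 3 libraries can give.

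IDH1, the cytosolic enzyme that makes 2-oxoglutarate, lies at chr2:208236227-208266074 on the minus strand. It had 176, 180.0 and 183 CPM in MSLN-KO, against 159.9, 167 and 172 CPM in WT. The groups did not overlap, but the log2 change of 0.11 was not called (95% interval -0.00 to 0.22, limma adjusted p = 0.096). The means were 180.0 ± 3.38 CPM in MSLN-KO and 166 ± 6.18 CPM in WT (SD, n = 3 each).

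IDH2, the mitochondrial counterpart, lies at chr15:90083045-90102504 on the minus strand. It had 128, 123 and 112 CPM in MSLN-KO, against 179, 164 and 183 CPM in WT. Every MSLN-KO library was below every WT library. The means were 121 ± 8.12 CPM in MSLN-KO and 175 ± 9.78 CPM in WT (SD, n = 3 each), and the log2 change was -0.53 (SE 0.064, 95% interval -0.67 to -0.40, limma adjusted p = 2e-05). Of the 36 other listed genes within 5 Mb, 31 were lower and 1 was higher, with a median log2 change of -0.63. Of all 371 listed genes of chromosome 15, 308 were lower and 13 higher, with a median of -0.57. Relative to its regional median IDH2 stood at 0.10 and was not called (limma adjusted p = 0.24). Within a library, the log2 ratio of IDH2 to IDH1 was -0.571 ± 0.124 in MSLN-KO and 0.0747 ± 0.0959 in WT (SD, n = 3 each), a difference of -0.65 (exact permutation p = 0.1, two-sided, the smallest possible, and 0.2 over the 4 pairs).

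**Figure D2:**
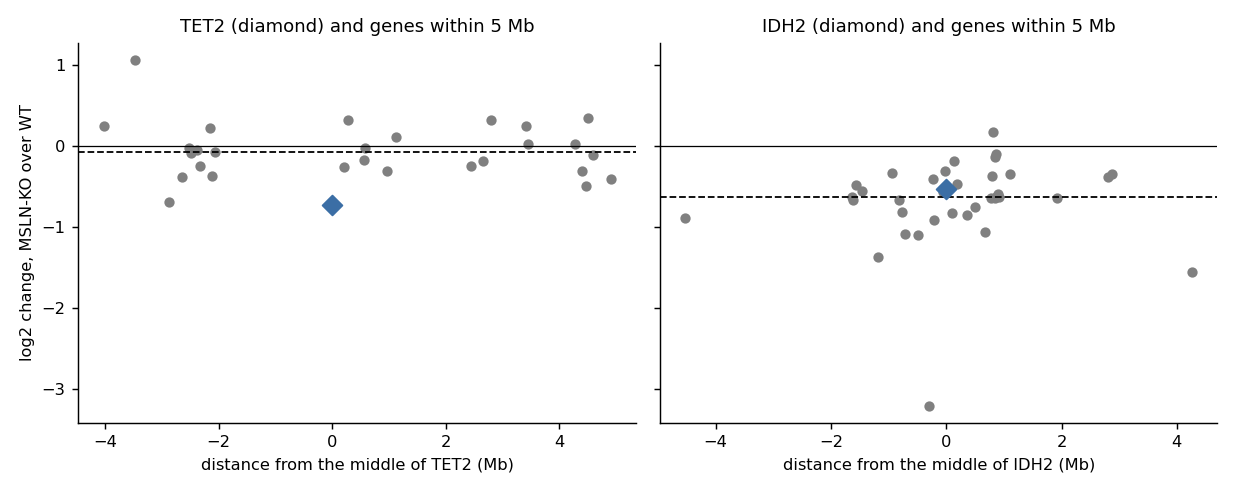
Log2 change (MSLN-KO over WT) of TET2 (left, diamond), IDH2 (right, diamond) and the listed genes within 5 Mb of each (grey), against distance in Mb, with the median of the other genes as a dashed line. TET2 lies below its 28 neighbours' median of -0.08, while IDH2 lies among 36 neighbours whose median is -0.63.

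TRIM28, the corepressor that KRAB zinc finger proteins recruit, lies at chr19:58544091-58550722 on the plus strand. It had 286, 292 and 232 CPM in MSLN-KO, against 273, 227 and 258 CPM in WT. The groups overlapped widely, and the spread of TRIM28 within a group was the largest of the 10 in MSLN-KO. Its log2 change of 0.09 had a 95% interval of -0.10 to 0.28 (limma adjusted p = 0.43).

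SETDB1, the histone H3 lysine 9 methyltransferase that TRIM28 recruits, lies at chr1:150926263-150964744 on the plus strand. It had 99.6, 100.3 and 98.3 CPM in MSLN-KO, against 99.4, 103 and 98.8 CPM in WT. All 6 libraries lay close together, and the log2 change of -0.02 had a 95% interval of -0.13 to 0.10 (limma adjusted p = 0.83). That interval limits a change in the level counted for SETDB1 in these libraries to a ratio between 0.915 and 1.07. SETDB1 shares 948 exon bases with CERS2 on the opposite strand, a ceramide synthase gene that was higher in MSLN-KO (112 ± 5.87 CPM in MSLN-KO and 80.5 ± 0.607 CPM in WT, SD, n = 3 each, limma adjusted p = 1.9e-05). The strand setting of the counting is not given in the sources used here, so reads of the shared bases could belong to either gene. The log2 ratio of SETDB1 to TRIM28 was -1.42 ± 0.167 in MSLN-KO and -1.32 ± 0.171 in WT (SD, n = 3 each, exact permutation p = 0.5, two-sided, and 0.5 over the 4 pairs).

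**Figure D3:**
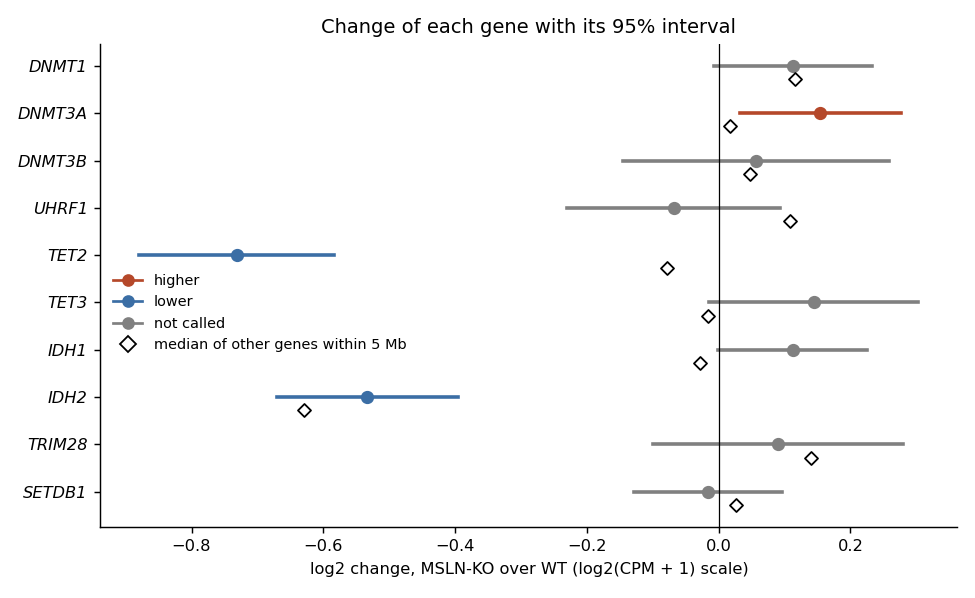
Log2 change (MSLN-KO over WT, log2(CPM + 1) scale) of the 10 genes with 95% intervals, coloured by call, and the median of the other listed genes within 5 Mb as open diamonds. The intervals of 7 genes reach 0; that of TET2 is far from its neighbours' median and that of IDH2 includes it.

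Between the groups, the order of the genes by level per kilobase of exon was nearly kept. In MSLN-KO, TRIM28 (66.9 ± 8.12 CPM per kb) came first and IDH2 (43.0 ± 2.89 CPM per kb) second, with ranges that did not overlap. In WT, TRIM28 (62.7 ± 5.88 CPM per kb) and IDH2 (62.4 ± 3.47 CPM per kb) overlapped in range. IDH1 came next at 38.1 ± 0.716 CPM per kb in MSLN-KO and 35.3 ± 1.31 CPM per kb in WT (SD, n = 3 for each value per kb).

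UHRF1 and DNMT1 followed in both groups, at 26.2 and 24.0 CPM per kb in MSLN-KO, where their ranges overlapped, and at 27.4 and 22.2 CPM per kb in WT, where they did not. TET2 and SETDB1 changed places: SETDB1 stood above TET2 in MSLN-KO (14.01 ± 0.142 and 10.3 ± 0.414 CPM per kb), and TET2 stood above SETDB1 in WT (17.2 ± 1.69 and 14.2 ± 0.357 CPM per kb). TET3, DNMT3A and DNMT3B closed the order in both groups, DNMT3B at 2.02 CPM per kb in MSLN-KO and 1.94 CPM per kb in WT. Neighbours in the lower part of the order, below DNMT1, did not overlap in range in either group.

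The libraries of a group also differed in a shared way. TRIM28, UHRF1, IDH2 and DNMT1 each had their lowest value of the group in MSLN-KO replicate 3 and in WT replicate 2. For TRIM28 these libraries stood 0.21 and 0.15 below their group's log2 mean, and for UHRF1 0.16 and 0.12 below it. TET2 went the other way and was highest in both libraries, by 0.07 in MSLN-KO replicate 3 and by 0.16 in WT replicate 2. Both were the libraries with the most reads in their group, and the part of depth in this was not tested.

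GCNT2, ARID5B, TRG-AS1 and ADAM10 were among the 5 genes whose profile over the 6 libraries was nearest to that of TET2 (the smallest Euclidean distance of centred log2(CPM + 1) values). The distance was 0.0792 for GCNT2, a glycosyltransferase gene, and 0.0875 for ADAM10, a membrane protease gene that lies on chromosome 15. GCNT2 had 18.3, 18.8 and 19.3 CPM in MSLN-KO, against 30.03, 34.5 and 31.7 CPM in WT. All MSLN-KO libraries of GCNT2 were below all WT libraries, which its choice by likeness to TET2 fixes. None of the other 9 genes followed was among these 5.

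Genes that work with the 10 were grouped by role, and each group is read against the 22.4% of all genes called higher and the 23.3% called lower. Of 8 listed partners of methylation upkeep, 1 was higher, 2 were lower and 5 were not called. UHRF2, a relative of UHRF1, was higher (57.9 ± 5.49 CPM in MSLN-KO and 41.5 ± 1.56 CPM in WT, SD, n = 3 each, log2 change 0.47, limma adjusted p = 0.00018). Relative to its regional median UHRF2 was at 0.16 and not called (limma adjusted p = 0.087). CDCA7, which with HELLS opens chromatin to methylation, was lower (39.6 ± 2.96 CPM in MSLN-KO and 56.9 ± 4.64 CPM in WT, SD, n = 3 each, log2 change -0.51, limma adjusted p = 0.00012). PCNA, the replication clamp that DNMT1 binds, was lower by a log2 change of -0.22, while HELLS was not called (-0.04).

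Of the 10 methyl-CpG readers, 3 were higher, 1 was lower and 6 were not called. ZBTB4 (log2 change 0.31) and MBD6 (0.32) were among those higher, and MBD2, which ties methylated DNA to the NuRD complex, was lower (-0.22). In the NuRD complex itself 3 of 12 genes were higher and 5 were lower, among them the deacetylase gene HDAC1 (-0.24), RBBP7 (-0.47), CHD3 (-0.44), MTA3 (-0.31) and CDK2AP1 (-0.66). HDAC2 (0.16), MTA1 (0.22) and GATAD2B (0.29) were the 3 that were higher, and 1 was called higher without MSLN-KO replicate 1 or 2. HDAC2 was called with WT replicate 2 left out and with no other library left out (limma adjusted p otherwise between 0.051 and 0.08), and MTA1 was not called without WT replicate 2 either (0.063). MBD6 lost its call without MSLN-KO replicate 1 or 3 or WT replicate 1 or 3 (limma adjusted p between 0.052 and 0.09). For the readers, 2 were called lower without MSLN-KO replicate 3 or WT replicate 2.

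Of 13 listed genes for the making and removal of oxidised cytosine, 4 were higher and 4 were lower. The largest fall was that of TET1, the remaining TET gene, with 19.9 ± 1.63 CPM in MSLN-KO and 29.3 ± 4.08 CPM in WT (SD, n = 3 each, log2 change -0.53, limma adjusted p = 0.00069). The largest rise was that of GADD45B, a stress gene linked to demethylation (log2 change 0.55). NEIL1 (-0.51), NEIL2 (-0.34) and XRCC1 (0.23) are named because they lost their calls relative to their regional medians. There they stood at 0.06, -0.08 and 0.09 (limma adjusted p = 0.72, 0.52 and 0.37). XRCC1 was also not called without MSLN-KO replicate 1 or 2 or WT replicate 2 or 3 (0.076 to 0.15). TDG, the glycosylase that cuts out oxidised bases, was not called (49.3 ± 3.26 CPM in MSLN-KO and 50.5 ± 1.19 CPM in WT, SD, n = 3 each). The TET genes thus stood at -0.73 (TET2), -0.53 (TET1) and 0.14 (TET3) on the log2 scale, and their differences from each other were not tested except for TET3 over TET2.

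Of 12 genes that make or use 2-oxoglutarate and 2-hydroxyglutarate, 3 were higher and 3 were lower. BCAT1, the cytosolic branched-chain aminotransferase that uses up 2-oxoglutarate, had 77.1, 82.0 and 83.8 CPM in MSLN-KO, against 20.8, 17.6 and 11.9 CPM in WT. All MSLN-KO libraries were far above all WT libraries, 4.83-fold in the means (log2 change 2.24, SE 0.14, limma adjusted p = 5.3e-08). GLUD1 (log2 change 0.23) and BCAT2 (0.31) were also called higher, the groups of BCAT2 overlapping. The call of BCAT2 was lost without MSLN-KO replicate 1 or 2 or WT replicate 2 or 3 (limma adjusted p between 0.11 and 0.19). Relative to its regional median BCAT2 was at 0.13 and not called (limma adjusted p = 0.39). Its call was also lost with a pseudocount of 0.5 or rescaling to median ratios (0.051 each) and without the variance trend (0.07). IDH3A (-0.61), IDH3B (-0.25) and OGDH (-0.27), genes of the citric acid cycle, were lower, and IDH3A lies on chromosome 15 as IDH2 does. Relative to its regional median IDH3A was at -0.02 and not called (limma adjusted p = 0.8). D2HGDH, which clears 2-hydroxyglutarate, was not called (0.08).

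Of 8 genes listed under the supply of methyl donors, 3 were higher and 1 was lower. MAT2A, which makes S-adenosylmethionine, was higher (178 ± 15.6 CPM in MSLN-KO and 150.7 ± 9.86 CPM in WT, SD, n = 3 each, log2 change 0.23, limma adjusted p = 0.016). AHCYL1 (log2 change 0.40) and MTR, the methionine synthase (0.18), were higher as well. AHCYL1 was listed for its likeness to an enzyme of the methyl cycle and is not itself a supplier of methyl donors. The call of MAT2A was lost without MSLN-KO replicate 3 (limma adjusted p = 0.059) or WT replicate 2 (0.053), and that of MTR without any 1 library but MSLN-KO replicate 3 or WT replicate 2 (0.054 to 0.091).

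Around the corepressors, 1 of 14 cofactors of HP1 and SETDB1 was higher and 3 were lower. The 1 that was higher was ATF7IP, which stabilises SETDB1 (145 ± 9.94 CPM in MSLN-KO and 101 ± 12.5 CPM in WT, SD, n = 3 each, log2 change 0.53, limma adjusted p = 0.00017). The largest fall was that of TRIM24, a relative of TRIM28 (76.7 ± 3.57 CPM in MSLN-KO and 128 ± 7.45 CPM in WT, SD, n = 3 each, log2 change -0.73, limma adjusted p = 8.1e-07). Of 5 genes listed for the HUSH complex 1 was higher, TASOR2 (log2 change 0.23), a relative of the subunit gene TASOR. Without WT replicate 2, 2 cofactors and 2 HUSH genes were called higher, and without MSLN-KO replicate 3, 1 HUSH gene was called lower. None of the 8 listed other methyltransferases of histone H3 lysine 9 was called by limma, and 1 had an unadjusted p under 0.05. Without MSLN-KO replicate 2, 1 of the 8 was called lower, without MSLN-KO replicate 3, 2 were called higher, and without WT replicate 2, 1 was called each way. Of 10 demethylases of that mark, 3 were higher, KDM7A (0.72), PHF8 (0.25) and KDM4C (0.22), and 0 were lower (1 was without MSLN-KO replicate 1). KDM4C was not called without MSLN-KO replicate 1 or WT replicate 1 or 3 (limma adjusted p between 0.063 and 0.077), and relative to its regional median it was at -0.10 (0.25).

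Of 19 listed Polycomb genes, 8 were higher and 3 were lower, with a median log2 change of 0.18 against 0.01 over all genes. With 1 library left out, 7 or 8 were called higher and 3 or 4 lower, though not always the same genes. KDM2B, for example, lost its call without MSLN-KO replicate 1 (limma adjusted p = 0.12). With the regional median subtracted, 7 were higher and 3 lower. The largest rise was that of CBX6 (log2 change 0.76) and the largest fall that of PHF19 (-0.42).

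**Figure D4:**
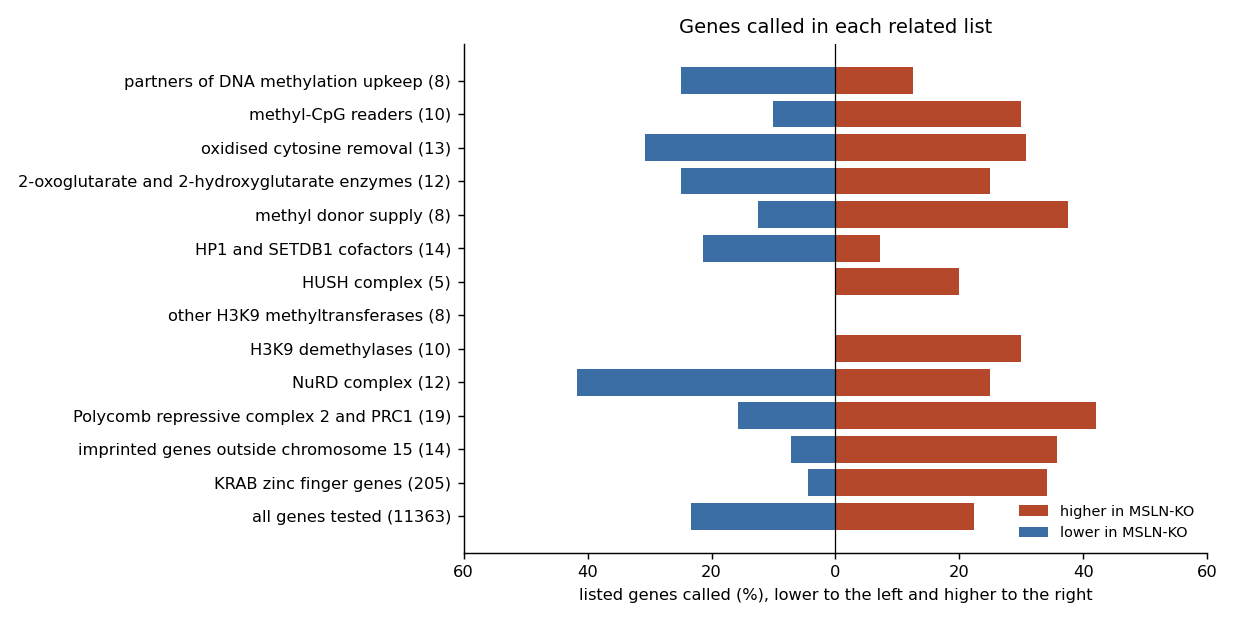
Share of listed genes called higher (right, red) or lower (left, blue) in MSLN-KO for each group of related genes with at least 5 listed members, with the number listed in parentheses and all 11363 genes in the lowest row. KRAB zinc finger genes have 34.1% called higher and 4.39% called lower. Without the 8 KRAB genes listed only through their MSLN-KO values, the shares are 31.5% and 4.57%. The other methyltransferases of histone H3 lysine 9 have no called gene.

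KRAB zinc finger proteins recruit TRIM28. Their genes were sought in translated transcripts by a KRAB sequence pattern and zinc fingers, and 205 of the 292 found were listed. The pattern was fixed and misses variant KRAB domains. The zinc finger genes without it include known KRAB genes, such as ZNF224 (called higher) and ZNF230 (not called), and are not a set free of KRAB genes. In MSLN-KO 70 were higher, 9 were lower and 126 were not called, with a median log2 change of 0.14. Of the 265 listed zinc finger genes without that pattern, 60 were higher and 32 lower, with a median of 0.07 (35 were called higher without WT replicate 3). KRAB genes lie mostly on chromosome 19, where 299 of 813 listed genes were higher and 77 lower (median 0.15). On that chromosome 49 of 131 KRAB genes were higher and 4 lower, against 230 higher and 73 lower of 638 genes there that were in neither zinc finger class. The 49, and the 70 above, include 8 genes described below that were listed only through their MSLN-KO values. The direction of those 8 is fixed by that, so these counts do not compare KRAB genes with other genes on equal terms. On all other chromosomes 21 of 74 KRAB genes were higher and 5 lower (median 0.11). With the regional median subtracted, the split was 44 higher and 21 lower.

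On the log2(CPM + 1) scale, the 3 largest rises among KRAB genes were those of ZNF43, ZNF91 and ZNF486, all on chromosome 19. ZNF43 (chr19:21804949-21852125) had 16.04, 18.1 and 17.7 CPM in MSLN-KO and 0 in each WT library, and was at least 427-fold higher against a floor of 3 reads over the WT group. ZNF91 (chr19:23304991-23395560), a repressor of SVA retrotransposons, had 22.6, 21.7 and 24.97 CPM in MSLN-KO, against 0.490, 0.542 and 0.463 CPM in WT. ZNF486 (chr19:20167228-20200490) had 9.36, 10.3 and 10.2 CPM in MSLN-KO and 0 in each WT library, at least 245-fold higher against the same floor.

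These 3 belong to 8 KRAB genes with a WT mean under 1 CPM, all of them higher in MSLN-KO and all within chr19:20167228-24129961. They reached the table only through their MSLN-KO values, and their shared direction is fixed by that. Their means were 6.53 to 23.1 CPM in MSLN-KO and 0 to 0.498 CPM in WT. That stretch held 16 listed genes, 9 of them higher and 0 lower. The others nearby were at like levels in both groups, such as ZNF100 (57.3, 54.99 and 58.7 CPM in MSLN-KO, against 58.4, 57.9 and 56.6 CPM in WT), an example chosen after its values were seen. The upstream windows of the 8 held 6 to 9 CpG pairs, within the quartiles of all RefSeq windows (3 and 23, median 11). These genes come from a cluster of related copies, and how reads with several matches were counted is not given in the sources used here, so single values are uncertain. Without the 8, 62 of 197 KRAB genes were higher and 9 lower.

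On the same scale, the 3 largest falls among KRAB genes were those of ZFP57, ZNF69 and ZNF823. ZFP57, which holds methylation at imprinted regions together with TRIM28, had 8.39, 8.55 and 8.83 CPM in MSLN-KO, against 15.01, 13.0 and 17.3 CPM in WT. The groups did not overlap (log2 change -0.74, SE 0.10, limma adjusted p = 7e-05). ZNF69 (log2 change -0.61) and ZNF823 (-0.52) lie on chromosome 19.

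**Figure D5:**
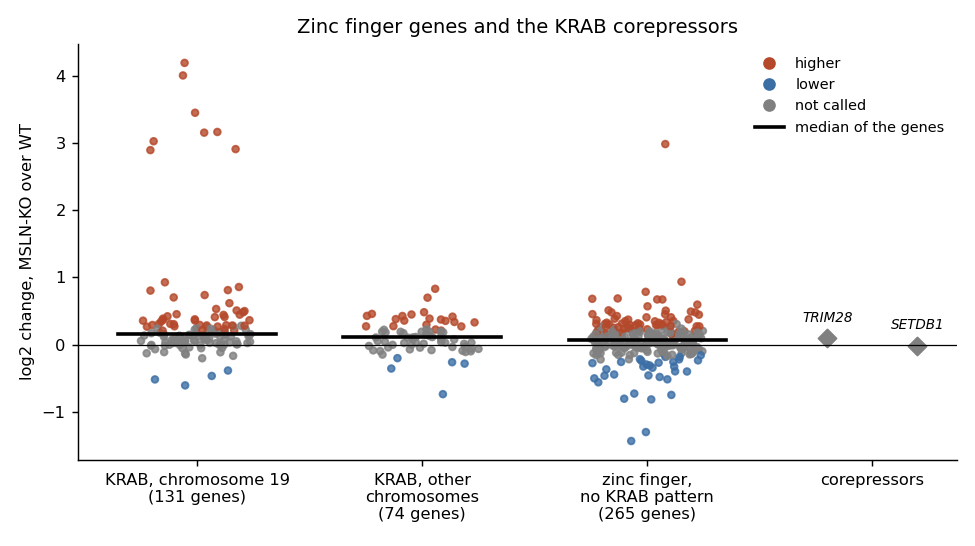
Log2 change (MSLN-KO over WT) of listed KRAB zinc finger genes on chromosome 19 and elsewhere, of zinc finger genes without the KRAB pattern, and of TRIM28 and SETDB1, coloured by call with group medians as black lines. A cluster of points on chromosome 19, ZNF43, ZNF91 and ZNF486 among them, lies far above the rest, while TRIM28 (0.09) and SETDB1 (-0.02) are near 0.

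Some germline genes are known to be held silent by methylation, which in imprinted genes marks the copy from 1 parent. Of 35 such germline genes, 3 reached the level of the table. HORMAD1, a meiosis gene, had 18.0, 15.8 and 19.1 CPM in MSLN-KO, against 0.0408, 0.155 and 0.337 CPM in WT (log2 change 3.99, limma adjusted p = 1.1e-10), and it too was listed only through its MSLN-KO values. TDRD9 (log2 change -0.60) and XAGE1A (-0.63) were lower, the second one of near-identical copies and so uncertain. Of 14 listed imprinted genes outside chromosome 15, 5 were higher and 1 was lower. The largest rise was that of GRB10, a growth factor adaptor (46.1 ± 1.68 CPM in MSLN-KO and 14.3 ± 0.674 CPM in WT, SD, n = 3 each, log2 change 1.63, limma adjusted p = 1.4e-09), and the fall was that of GNAS (-0.31).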

How the data were processed

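RNA of 3 MSLN-KO and 3 WT libraries of NOMO-1 was measured. Stranded libraries were built from total RNA depleted of ribosomal RNA, per the labels' protocols. Per the submitters' processing notes, the tools were STAR, featureCounts and edgeR and the build was GRCh38/hg38. The sources used here give no versions, annotation or strand setting. The authors deposited CPM values after TMM normalization, and their column totals of 967718 to 1009572 are those of CPM. The lowest of the listed genes still had 4.90 CPM or more in 3 libraries, so genes under that level in both groups were not analysed here. All values were whole multiples (within 0.01) of what 1 read is worth, which gave the depths of 23665824 to 30804446 reads. The floor of 3 reads for genes at 0 covers counting error only.

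Of 11363 identifiers, 11354 had a symbol and 11314 a position in GENCODE release 29. R 4.3.3 with limma 3.58.1 (lmFit and a trended eBayes) was fitted to log2(CPM + 1) over all 6 libraries, two-sided, Benjamini-Hochberg adjusted over all genes. The same fit was run on simulated data with a common spread setting for every gene and far fewer changed genes. Those settings differ from these data, so that run does not vouch for the calls. No planned filter (a mean of 0.5 CPM) removed a gene, and fold changes on this scale understate low genes. Within a group no pair of libraries agreed within sampling noise (chi-square of 2.71 to 14.8 for each degree of freedom). No block was used in the fit. KRAB zinc finger genes were those whose translated GENCODE transcripts held a KRAB pattern and at least 3 fingers, in place of a planned search of RefSeq proteins. The members and lists were chosen with earlier results of these data known. By the naming rule, the text names all 10 genes, MSLN, called genes of lists with up to 12 listed genes, the largest rise and fall of longer lists, the 3 largest of each for KRAB genes, and the 5 genes most like TET2. Uncalled or other genes named beside them were chosen after their values were seen. Not all genes covered by this rule are reported here.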

Additional observations from a re-analysis of the deposited data

How the results depend on the processing

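TET2 and MSLN kept their direction and their call in all 16 alternatives (other pseudocounts, filters, scalings, variance settings, the replicate block, the regional median and each library left out), TET2 between -0.78 and -0.65 and MSLN between -1.56 and -1.29 on the log2 scale. IDH2 did so in 15 of 16, between -0.58 and -0.48 with each library left out. DNMT3A kept its call in 8 of 16. It was lost (limma adjusted p between 0.05 and 0.14) without each library but MSLN-KO replicate 3, with the replicate block (0.07), without the variance trend (0.054) and with the regional median subtracted (0.067). Rescaling to column totals called 5 of the 10 genes, adding DNMT1 (limma adjusted p = 0.043) and IDH1 (0.046), and the regional median also called IDH1 (0.044). With 1 library left out, 2 to 4 of the 10 genes and 4092 to 5114 of all genes were called. DNMT1 was called without MSLN-KO replicate 3 (0.029), and TET3 without WT replicate 2 (0.04).

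Signs turned only in values near 0 or under the regional median: SETDB1 was at 0.0168 with column totals and between -0.0284 and 0.00448 with 1 library left out (positive without WT replicate 2), UHRF1 was between -0.128 and 0.0106 with 1 library left out (positive without MSLN-KO replicate 3), and, with the regional median subtracted, DNMT1 was at -0.00358, IDH2 at 0.0959 and TRIM28 at -0.0500. For IDH2, DNMT1 and TRIM28 the neighbours' own medians, which were subtracted, account for the turn; for the others the cause was not tested. The fit with the replicate number as a block called 4946 genes, 2 of the 10 among them, and changed no call of the 10 but that of DNMT3A. The replicate numbers did not pair the libraries: deviations of same-numbered libraries correlated at 0.19, -0.17 and -0.09, and not every library correlated best with its own number. KRAB counts, 70 higher and 9 lower, were 44 and 21 with the regional median, and, in alternatives chosen after seeing the data, 21 and 5 without chromosome 19 and 113 and 27 when all genes named ZNF and a number were taken. Counts of 3 or fewer in short lists moved by 1 or 2 genes in some settings, and zinc finger genes without the KRAB pattern called higher numbered 35 without WT replicate 3, against 60. A count test was planned and not run, since the table holds too few low values to check read counts recovered from CPM. With 3 libraries a group, an exact test cannot go under p = 0.1. A gene below the table's level in both groups cannot be seen at this depth.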
